A study of Mus musculus with 70 samples.

Results

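Embryonic stem cells of the mouse (mESCs) from the strain C57BL/6 were profiled as 2 lines, clone 1 (mESC B6-1) and clone 2 (mESC B6-2), and gene expression was compared between them. The 4 libraries, 2 per clone, were chosen by these labels and are 4 of 70 libraries in the series, the others being 57 from brain regions of adult mice (P56) and 9 from embryonic brain (E14.5). No gene was altered and no agent distinguished the clones. Before RNA extraction both lines were taken off irradiated mouse embryonic fibroblast feeders and passaged on gelatin, in medium that was in part conditioned by such fibroblasts and that held leukemia inhibitory factor (LIF), the GSK3 inhibitor CHIR-99021 and the MEK inhibitors CI-1040 and PD0325901. Each line is 1 clone, so a difference between the lines cannot be told apart from a difference between individual clones, and no source states that the 2 libraries of a clone were separate cultures. The p-values therefore measure the spread between these libraries, which may be technical. The labels number the 2 libraries of a clone consecutively and the clones far apart. The paper states that samples were prepared in several batches, and the batch of each mESC library was not known here. A difference in preparation therefore cannot be told apart from a difference between the clones.

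mESCs are cultured from the inner cell mass of the blastocyst and are held in the naive state by LIF with inhibition of MEK and GSK3. They are known to carry a small and fluctuating fraction of cells that express genes of the 2-cell embryo, to lose or gain DNA methylation at imprinted genes in culture, and, in female lines, to keep both X chromosomes active. Whether a line carries a Y chromosome is read from genes such as Eif2s3y and Ddx3y. In RNA from whole cultures, a lower level of a gene cannot be told apart from fewer cells that express it.

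The libraries held 12985081 to 18501667 estimated counts, with the lowest total in mESC B6-2 replicate 2. Expression was given in TPM, a relative abundance per transcript length that is scaled to the same total in each library. Defining pluripotency genes were high in all 4 libraries: Pou5f1 at 1081 and 1036 TPM in mESC B6-1 and 990 and 1003 TPM in mESC B6-2, and Nanog at 546 and 572 TPM against 576 and 541 TPM, respectively. Gata6, a primitive endoderm factor, was between 0.43 and 0.723 TPM and Fgf5, which marks the primed state, between 0.0778 and 0.357 TPM, so the markers matched the label. Pearson's r of log2(TPM + 1) over 34677 genes was 0.9918 between the mESC B6-1 libraries, 0.9896 between the mESC B6-2 libraries and 0.9856 to 0.9870 between clones, as a description, since the 4 libraries share a protocol. For comparison, 72 pairs of libraries from the same brain region had a median r of 0.9890.

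In the edgeR comparison, 1237 genes were higher and 1208 lower in mESC B6-2 among 15391 tested at an adjusted p under 0.05, which is 8.04% and 7.85% of genes. Most of these differences were small: the median absolute log2 fold change of a called gene was 0.40, and 168 genes were higher and 201 lower by more than 2-fold (1.09% and 1.31%). All log2 fold changes below are of mESC B6-2 over mESC B6-1, with the standard error of the fit. They come from counts per gene and can differ from the ratio of TPM where transcripts of unequal length differ. The number of called genes rested on the fit: 737 were higher and 715 lower with DESeq2, 73 and 145 when all 70 libraries entered 1 edgeR model, and 71 and 67 with limma on log2(TPM + 0.5). It also rested on single libraries, with 403 and 443 without mESC B6-1 replicate 1, 468 and 505 without mESC B6-1 replicate 2, and 1904 and 1847 without mESC B6-2 replicate 2. A total of 31 genes were called by all 4 of edgeR with 4 libraries, edgeR with 70 libraries, DESeq2 and limma.

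Genes of the Y chromosome formed the clearest difference. Of 9 listed Y-linked genes 7 could be tested, and all 7 were higher in mESC B6-2, with a median log2 fold change of 6.42 (4.36 with genes at 0 counts in mESC B6-1 set to a floor of 3 counts per library). Eif2s3y (chrY:1010543-1028847), a subunit of the translation initiation factor eIF2, was at 0.278 and 0.386 TPM in mESC B6-1 and at 44.9 and 42.6 TPM in mESC B6-2. It was the gene with the smallest adjusted p (log2 fold change 7.75 ± 0.21, adjusted p = 5.23e-05). Both mESC B6-2 libraries lay within the range of 19.2 to 76.4 TPM over the 57 libraries of adult male brain, and both mESC B6-1 libraries below it. The coding transcript with the most counts of Eif2s3y had 0 estimated counts in each mESC B6-1 library and 481.5 and 252.1 in mESC B6-2.

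The RNA helicase Ddx3y was at 0.34 and 0.0273 TPM in mESC B6-1 and at 10.4 and 9.79 TPM in mESC B6-2 (log2 fold change 6.42 ± 0.32, adjusted p = 0.000212). Uty, the Y-linked relative of the histone demethylase gene Kdm6a, was at 0.524 and 0.237 TPM against 6.77 and 5.08 TPM (3.72 ± 0.26, adjusted p = 0.000834). In neither gene did the clones overlap. In mESC B6-2 Uty lay within its range in adult male brain (3.61 to 13.6 TPM), whereas Ddx3y lay below its own (15.2 to 40.9 TPM). The zinc finger gene Zfy1 had 0 counts in both mESC B6-1 libraries and 113 and 58 counts in mESC B6-2, at least 31.04-fold higher, and Usp9y, a deubiquitinase gene, had 0 and 0 against 24 and 11 counts, at least 6.29-fold higher. Zfy1 was at most 0.0422 TPM in adult brain, and Uba1y, a ubiquitin-activating enzyme at 0.257 and 0.218 TPM in mESC B6-1 and 6.04 and 4.71 TPM in mESC B6-2, at most 1.34 TPM. Both genes had higher levels in mESC B6-2 than in any adult brain library.

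Kdm5d, a histone H3K4 demethylase gene, was the exception in level. It was at 3.28 and 3.06 TPM in mESC B6-1 and at 6.71 and 5.89 TPM in mESC B6-2 (0.95 ± 0.08, adjusted p = 0.00159), so that the mESC B6-1 libraries held 309 and 282 counts of a Y-linked gene while Eif2s3y had 3 and 2. Its transcript with the most counts had 262 and 240 counts in mESC B6-1, and 95.2% of the 33-base stretches of the gene occur in no other gene, against 99.9% for Eif2s3y and 41.2% for Uba1y. Sry, the testis-determining gene, was not tested, with 0 to 5 counts per library. Xist, the RNA that coats an inactive X chromosome, was not analysed here. The annotation also placed Gm47283 on the Y chromosome, a gene outside the list with 54% unique stretches. Its counts were lower in mESC B6-2 (1178 and 1135 against 283 and 223, -2.02 ± 0.08, adjusted p = 0.000169). Its other stretches also occur in other genes, and whether its reads came from the Y chromosome was not tested.

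**Figure D1:**
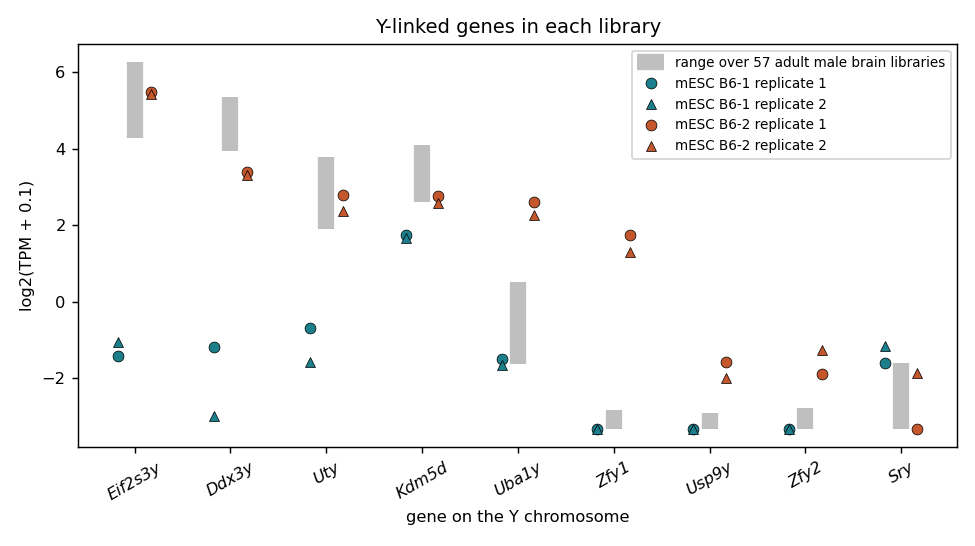
Level of the 9 listed Y-linked genes, as log2(TPM + 0.1), in each mESC library (points) beside the range over the 57 adult male brain libraries (grey bars). For Eif2s3y, Ddx3y and Uty the mESC B6-1 libraries lie below the grey bar and the mESC B6-2 libraries within it for Eif2s3y and Uty and below it for Ddx3y, while Kdm5d is at 3.28 and 3.06 TPM in mESC B6-1.

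X-linked genes differed in the other direction. Of 623 tested genes on the X chromosome, 124 (19.9%) were lower and 35 (5.62%) higher in mESC B6-2, where 7.85% of all tested genes were lower and the share on single autosomes ranged from 4.68% to 8.84%. The median log2 fold change was -0.13 for the X chromosome, and between -0.03 and 0.08 for the 19 autosomes.

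The difference lay mostly on the part of the X chromosome nearest the centromere. Genes were taken in chromosomal order in runs of 25, with 23 in the last, and the grouping of runs was chosen after their values were seen. In the first 4 runs (chrX:5699727-31347822, 100 genes) the median log2 fold change was -0.58, 89 genes were below 0 and 51 were called lower against 1 higher. In the first 11 runs, to position 74208500, the median was -0.32 and 92 of 275 genes were lower. In the remaining 348 genes, from position 74223461 on, the median was -0.04, with 32 lower and 24 higher. Over genes with at least 80% unique stretches the medians were -0.61, -0.31 and -0.05. Without mESC B6-2 replicate 2 the median of the first 11 runs was -0.25.

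Among genes of this stretch, the membrane protein gene Plp2 (chrX:7667941-7671390) was at 246 and 254 TPM in mESC B6-1 and at 124 and 125 TPM in mESC B6-2 (-1.09 ± 0.05, adjusted p = 0.000169, with 36% unique stretches). Wdr45 (chrX:7714333-7728206), an autophagy gene, was at 126 and 115 TPM against 53.2 and 45.2 TPM (-1.47 ± 0.10, adjusted p = 0.000711), and was named after its values were seen. In both, each library of mESC B6-1 lay above each library of mESC B6-2. Of 15 X-linked genes listed for their dosage in stem cells, 4 were lower. The ubiquitin-activating enzyme Uba1 was at 429 and 443 TPM against 270 and 302 TPM (-0.65 ± 0.04, adjusted p = 0.000711). The deubiquitinase Usp9x was at 246 and 263 TPM against 172 and 159.7 TPM (-0.57 ± 0.05, adjusted p = 0.00159), and the histone demethylase Kdm6a at 50.2 and 45.8 TPM against 31.1 and 27.0 TPM (-0.64 ± 0.07, adjusted p = 0.00305). Klhl13, an adaptor for ubiquitin ligases, was lower by -0.39 ± 0.08, a call that was lost without either mESC B6-1 library (adjusted p = 0.0512 and 0.128).

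Several of these genes are the X-linked partners of the Y-linked genes above. Kdm6a, Usp9x and Uba1, the partners of Uty, Usp9y and Uba1y, were lower in mESC B6-2. Eif2s3x, the partner of Eif2s3y, was at 149 and 145 TPM in mESC B6-1 and 159.5 and 146 TPM in mESC B6-2 (-0.01 ± 0.05), and Kdm5c, the partner of Kdm5d, at 69.9 and 80.03 TPM against 75.1 and 68.8 TPM (-0.14 ± 0.05, adjusted p = 0.0897). Ddx3x was at 418 and 409 TPM against 323 and 324 TPM, with a log2 fold change from counts of -0.09 ± 0.04 that was not called. Ogt, Hprt, Pgk1, Huwe1 and Atrx had log2 fold changes between -0.13 and 0.07, and none was called. Of the X inactivation list 1 gene was tested, and it was not called.

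**Figure D2:**
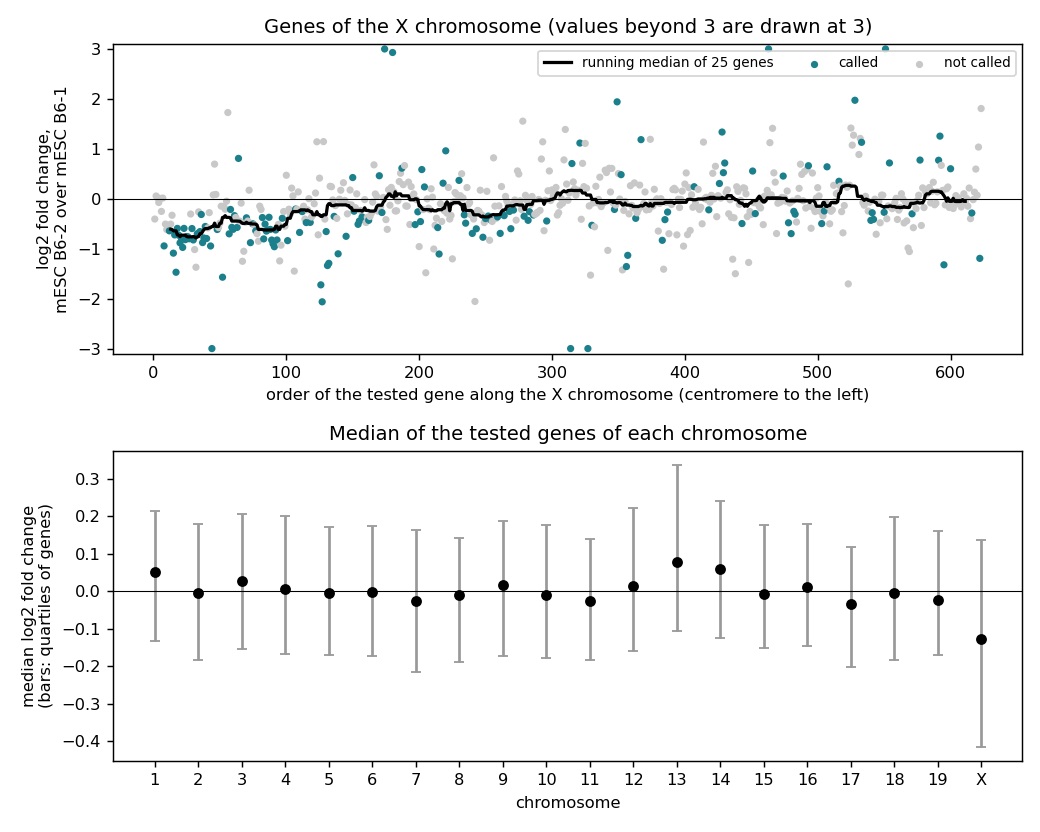
Upper panel, log2 fold change of each tested gene against its order along the X chromosome, with the running median of 25 genes. Lower panel, the median log2 fold change of each chromosome with the quartiles of its genes. The medians of the first 4 runs are between -0.62 and -0.45, that of the last 348 genes is -0.04, and the median of the X chromosome is -0.13.

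Genes of the 2-cell-like state were higher in mESC B6-2. Of 16 tested members of this list, 13 were higher and none lower, and all 16 log2 fold changes were above 0, with a median of 1.97. This compares with 8.04% of all tested genes called higher. The median share of unique stretches over the tested members was 50.05%. Copies that share stretches also share reads, so these calls are not separate observations. The list holds the Zscan4 genes, which act in telomere maintenance and mark this state, the Usp17l deubiquitinase genes and Zfp352. The summed level of the 18 members in the TPM table was 46.5 and 36.3 TPM in mESC B6-1 and 189 and 189 TPM in mESC B6-2. With all 70 libraries in 1 edgeR model 0 members were called, with 11 higher at an unadjusted p under 0.05 and a median of 1.95, while DESeq2 called 11 and 6 were called with limma on log2(TPM + 0.5).

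The promoters of Zscan4c, Zscan4d and Zscan4f (RefSeq, GRCm38.p6, 250 bases before to 50 after the annotated start, on chromosome 7) are shown for how alike these copies are, here mostly outside the transcribed part. TATAAA on the strand of the gene is in capitals. Zscan4c is at chr7:11005495-11005794 on the plus strand, Zscan4d at chr7:11166099-11166398 on the minus strand and Zscan4f at chr7:11397665-11397964 on the plus strand.
Zscan4c: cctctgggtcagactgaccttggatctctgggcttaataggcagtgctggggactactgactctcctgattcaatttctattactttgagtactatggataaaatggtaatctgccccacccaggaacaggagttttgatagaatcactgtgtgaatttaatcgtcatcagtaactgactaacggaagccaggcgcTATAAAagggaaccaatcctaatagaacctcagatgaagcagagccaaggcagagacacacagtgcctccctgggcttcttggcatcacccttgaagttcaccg
Zscan4d: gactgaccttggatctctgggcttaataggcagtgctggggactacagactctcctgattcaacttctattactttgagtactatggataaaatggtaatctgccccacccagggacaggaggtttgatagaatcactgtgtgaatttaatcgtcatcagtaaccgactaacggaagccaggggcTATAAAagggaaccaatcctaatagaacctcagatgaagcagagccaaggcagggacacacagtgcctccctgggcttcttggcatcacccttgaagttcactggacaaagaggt
Zscan4f: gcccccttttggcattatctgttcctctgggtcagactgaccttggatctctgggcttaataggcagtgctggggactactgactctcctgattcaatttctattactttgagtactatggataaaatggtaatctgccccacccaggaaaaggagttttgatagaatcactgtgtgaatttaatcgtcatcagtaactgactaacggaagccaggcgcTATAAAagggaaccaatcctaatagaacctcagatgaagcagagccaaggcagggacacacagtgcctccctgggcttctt
Shifted by 23 bases, the promoters of Zscan4c and Zscan4f had the same base at 275 of 277 positions (99.3%). Zscan4c and Zscan4d matched at 97.2% and Zscan4d and Zscan4f at 97.4%. TATAAA was present on the strand of the gene in 8.32% of the 32851 promoters of the table and in 6 of the 12 genes of the 2-cell-like list that have a promoter there. The first is a share of promoters and the second a count of genes with any such promoter. The Zscan4 promoters shown are near copies of each other, so these numbers were not compared. These are matches of letters only.

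Zscan4f (chr7:11397915-11402318) was at 18.8 and 15.9 TPM in mESC B6-1 and at 78.4 and 86.3 TPM in mESC B6-2 (log2 fold change 2.02 ± 0.09, adjusted p = 0.000169). Zscan4e was at 3.90 and 3.43 TPM against 21.1 and 19.9 TPM (2.40 ± 0.11, adjusted p = 0.000169), Zscan4c at 2.60 and 2.39 TPM against 18.3 and 15.5 TPM (2.68 ± 0.12, adjusted p = 0.000169), and Zscan4d at 1.89 and 2.49 TPM against 12.8 and 11.9 TPM (2.42 ± 0.14, adjusted p = 0.000407). Both mESC B6-2 libraries were above both mESC B6-1 libraries in each. Because only 6.9% to 37% of the 33-base stretches of these 4 genes occur in no other gene, the level of a single copy is uncertain. Zfp352, with 80.7% unique stretches, was at 0.218 and 0.448 TPM against 1.81 and 1.25 TPM (2.13 ± 0.44, adjusted p = 0.0205). Tcstv1 had a log2 fold change of 1.14 ± 0.38, Sp110 of 0.71 ± 0.26 and Ubtfl1 of 0.59 ± 0.34, and these 3 members were not called.

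Imprinted genes are expressed from 1 parental allele. Of 25 tested genes expressed from the paternal allele, 12 (48%) were lower in mESC B6-2 and 2 (8%) higher, against 7.85% and 8.04% of all tested genes, with a median log2 fold change of -0.32. Of 16 tested genes expressed from the maternal allele, 3 (18.8%) were higher and none lower, against the same background, with a median of 0.12. The difference between the classes was not tested. The count of lower paternal genes was 7 without mESC B6-1 replicate 1 and 6 without mESC B6-1 replicate 2, 5 with all 70 libraries and 2 with limma on log2(TPM + 0.5). H19 and Meg3 were not analysed here.

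Peg10 and Peg3 were among 11 genes that shared the second smallest adjusted p of all genes tested. Peg10 (chr6:4747306-4760517), a gene derived from a retrotransposon, was at 48.6 and 43.7 TPM in mESC B6-1 and at 16.6 and 16.2 TPM in mESC B6-2 (-1.57 ± 0.07, adjusted p = 0.000169). Its neighbour Sgce, which shares the imprinted domain, was lower as well, at 3.49 and 3.08 TPM against 1.67 and 2.29 TPM (-0.93 ± 0.22, adjusted p = 0.0319). Peg3 (chr7:6703892-6730431), a zinc finger gene, was at 49.5 and 48.1 TPM against 24.8 and 24.7 TPM (-1.03 ± 0.05, adjusted p = 0.000169). Usp29, which lies in the domain of Peg3, was at 3.30 and 3.39 TPM against 2.25 and 1.86 TPM and was not called (-0.44 ± 0.15, adjusted p = 0.0867). Peg3 and Peg10 kept their call when all 70 libraries entered the model and with limma on log2(TPM + 0.5).

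Rtl1 (chr12:109589193-109600330), a second retrotransposon-derived gene, was at 2.03 and 1.67 TPM in mESC B6-1 and at 0.0753 and 0.0754 TPM in mESC B6-2, the lowest log2 fold change of the list (-4.68 ± 0.38, adjusted p = 0.00129). Dlk1, a Notch ligand relative from the same domain, was at 2.01 and 0.983 TPM against 0.276 and 0.305 TPM (-2.18 ± 0.51, adjusted p = 0.0306), whereas Dio3 of that domain was at 3.08 and 2.02 TPM against 5.47 and 3.27 TPM and was not called. The growth factor gene Igf2 was at 2.96 and 3.30 TPM against 1.48 and 0.732 TPM (-1.41 ± 0.23, adjusted p = 0.0105). Snrpn was lower by -0.59 ± 0.06, Plagl1 by -0.46 ± 0.07 and Zrsr1 by -0.45 ± 0.07. The 2 paternal genes that were higher were Mest (53.95 and 49.4 against 68.7 and 66.7 TPM, 0.38 ± 0.07, adjusted p = 0.0177) and Ndn (0.47 ± 0.13, adjusted p = 0.0493), so the direction was not the same across domains.

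Grb10 (chr11:11930508-12038683), an adaptor that restrains growth factor signalling, was the largest change of the maternal class, at 11.6 and 12.7 TPM in mESC B6-1 and 31.6 and 30.5 TPM in mESC B6-2 (1.62 ± 0.07, adjusted p = 0.000169). The ubiquitin ligase Ube3a was at 24.2 and 22.8 TPM against 33.3 and 35 TPM (0.47 ± 0.05, adjusted p = 0.00368). The third, Igf2r, was higher by 0.19 ± 0.05 (adjusted p = 0.0424), a call lost without either mESC B6-1 library (adjusted p = 0.323 and 0.163). The promoters of Grb10 at its upstream and downstream RefSeq starts and of Peg3 are shown as these genes had the smallest adjusted p among imprinted genes with a promoter entry, with CG dinucleotides, the sites of DNA methylation, in capitals. They lie on the minus strand at chr11:12037371-12037670, chr11:12027922-12028221 and chr7:6730370-6730669 of GRCm38.p6.
Grb10 upstream start: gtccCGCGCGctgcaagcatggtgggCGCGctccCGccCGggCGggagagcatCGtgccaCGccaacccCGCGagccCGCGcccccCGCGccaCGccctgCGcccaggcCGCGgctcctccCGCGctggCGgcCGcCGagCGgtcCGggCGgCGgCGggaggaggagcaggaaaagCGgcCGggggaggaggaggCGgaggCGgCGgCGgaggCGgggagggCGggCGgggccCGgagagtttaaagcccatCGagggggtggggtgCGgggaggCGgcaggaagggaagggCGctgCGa
Grb10 downstream start: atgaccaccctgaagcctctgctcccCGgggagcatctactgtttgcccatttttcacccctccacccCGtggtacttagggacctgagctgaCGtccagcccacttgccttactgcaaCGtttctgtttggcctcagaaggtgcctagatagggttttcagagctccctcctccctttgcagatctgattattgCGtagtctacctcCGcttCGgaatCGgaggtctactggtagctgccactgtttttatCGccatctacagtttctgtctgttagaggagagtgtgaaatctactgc
Peg3: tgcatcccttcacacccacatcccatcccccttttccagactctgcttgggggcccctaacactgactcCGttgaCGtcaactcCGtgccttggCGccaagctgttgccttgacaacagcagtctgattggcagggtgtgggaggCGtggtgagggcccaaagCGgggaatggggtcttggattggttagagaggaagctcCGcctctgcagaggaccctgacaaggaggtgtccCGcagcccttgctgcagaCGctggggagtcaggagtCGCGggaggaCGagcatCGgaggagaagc
The upstream start of Grb10 held 45 CG, a number reached by 1.93% of promoters in the table, the downstream start held 9 and Peg3 held 13, where the median promoter held 7. Of the transcripts of Grb10, the most abundant one with its first base in the upstream window was at 7.91 and 3.85 TPM in mESC B6-1 and at 17.4 and 24.5 TPM in mESC B6-2. Transcripts that share most of their exons are divided by estimation. Methylation was not measured in these libraries.

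**Figure D3:**
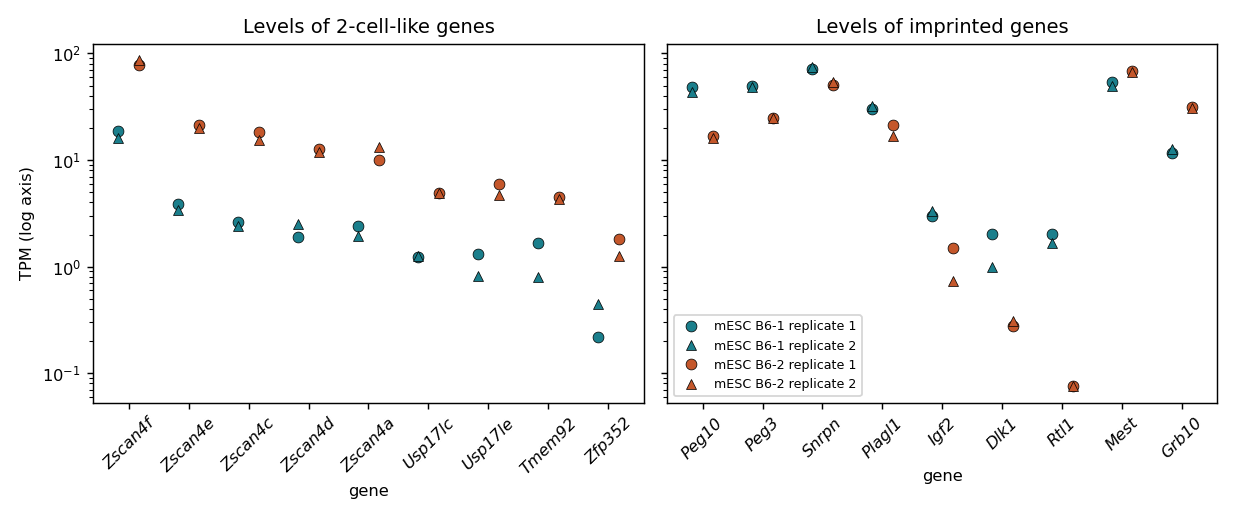
TPM of 9 2-cell-like genes and 9 imprinted genes in each library on a log axis, with the clone in colour and the replicate as symbol. In all 9 2-cell-like genes the mESC B6-2 libraries are above the mESC B6-1 libraries. Among the imprinted genes, Peg10, Peg3, Snrpn, Plagl1, Igf2, Dlk1 and Rtl1 are lower and Mest and Grb10 higher in mESC B6-2.

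Germline genes that DNA methylation silences in somatic cells were called higher in mESC B6-2 in 12 of 26 cases (46.2%) and lower in 4 (15.4%), against 8.04% and 7.85% of all tested genes, with a median log2 fold change of 0.36. Sycp1, a component of the synaptonemal complex, was at 76.3 and 65.6 TPM in mESC B6-1 and 114 and 103 TPM in mESC B6-2 (0.91 ± 0.05, adjusted p = 0.000378). Dazl, an RNA-binding regulator of germ cells, was at 103 and 96.5 TPM against 183 and 166 TPM (0.73 ± 0.06, adjusted p = 0.00129), and Sohlh2, a transcription factor of germ cells, at 38.1 and 40.5 TPM against 60.9 and 62.0 TPM (0.57 ± 0.06, adjusted p = 0.00221). The clones did not overlap in these 3 genes. The members that were lower were Rpl10l, Rhox5, Rhox6 and Rhox9. Rhox5, a homeobox gene of the X chromosome, was at 726 and 715 TPM against 489 and 473 TPM (-0.66 ± 0.05, adjusted p = 0.000986), and the 3 Rhox genes lie together on that chromosome. Without either mESC B6-1 library 1 member was called lower. With all 70 libraries in edgeR 2 members were called higher and 0 lower, where DESeq2 called 2 lower. Of 11 tested genes for enzymes and cofactors of DNA methylation, 1 was called, Dnmt3a (78.5 and 66.9 against 89.2 and 107 TPM, 0.30 ± 0.08, adjusted p = 0.0372), and it was lost without either mESC B6-1 library (adjusted p = 0.0551 and 0.202).

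Of 29 shared and naive pluripotency genes 4 were higher and 3 lower (13.8% and 10.3%), against 8.04% and 7.85% of all tested genes, with a median of 0.05. These counts were 2 and 1 without either mESC B6-1 library, 10 and 6 without mESC B6-2 replicate 1 and 6 and 6 without mESC B6-2 replicate 2. The transcription factor Sox2 was at 207 and 219.5 TPM in mESC B6-1 and at 306 and 311 TPM in mESC B6-2 (0.46 ± 0.05, adjusted p = 0.00241). The Nodal co-receptor gene Tdgf1 was at 534 and 534 TPM against 728 and 714 TPM (0.35 ± 0.04, adjusted p = 0.00292). Dppa3, a maternal factor that protects DNA methylation in the zygote, was at 14.4 and 16.0 TPM against 6.76 and 7.92 TPM (-1.14 ± 0.19, adjusted p = 0.0113, and 0.0526 without mESC B6-1 replicate 2). Pou5f1 (-0.15 ± 0.04, adjusted p = 0.0634), Nanog (-0.07 ± 0.04), Zfp42 (-0.22 ± 0.06, adjusted p = 0.0516) and Esrrb (-0.14 ± 0.04, adjusted p = 0.0596) were not called. Of these, Pou5f1 and Esrrb passed with DESeq2 (adjusted p = 0.0235 and 0.0316). Both also passed without mESC B6-2 replicate 1 (edgeR adjusted p = 0.0270 and 0.0234) and without mESC B6-2 replicate 2 (0.00330 and 0.00731), and Zfp42 passed without mESC B6-2 replicate 1 (0.00385). Of 18 genes of the formative and primed state 4 were higher, led by Lefty2, a Nodal antagonist at 6.95 and 6.46 TPM against 15.6 and 13.7 TPM (1.06 ± 0.10, adjusted p = 0.00184), and none was lower. Without either mESC B6-1 library 2 were higher.

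Markers of trophoblast and of fibroblasts, the cells that fed the cultures, were examined as signs of other cell types. Of 10 tested trophoblast genes 5 (50%) were lower and none higher, against 7.85% and 8.04% of all tested genes, with a median of -0.75. At an unadjusted p under 0.05, 6 were lower and 2 higher in edgeR, and the summed level of the list was 102.5 and 105.6 TPM in mESC B6-1 and 77.25 and 75.55 TPM in mESC B6-2. The keratin gene Krt8 was at 8.27 and 7.51 TPM against 3.94 and 3.52 TPM (-1.15 ± 0.14, adjusted p = 0.00449) and the transcription factor gene Tfap2c, which is also expressed in germ cells and mESCs, at 54.5 and 64.4 TPM against 39.9 and 40.8 TPM (-0.57 ± 0.09, adjusted p = 0.00991). Gata3, Krt18 and Gata2 were the others. Without mESC B6-1 replicate 1, 2 trophoblast genes were called, with DESeq2 3, and with all 70 libraries in edgeR and with limma on log2(TPM + 0.5) 0, where 1 and 4 were lower and 0 and 2 higher at an unadjusted p under 0.05.

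Of 15 tested fibroblast genes 6 (40%) were lower and none higher, against 7.85% and 8.04% of all tested genes, with a median of -0.65, and 1 was called higher without mESC B6-2 replicate 1. Their summed level, with the list of 20 genes, was 106 and 79.7 TPM in mESC B6-1 and 65.2 and 61.0 TPM in mESC B6-2, and 1 of the 20 was under 0.1 TPM in all 4 libraries. The collagen gene Col1a1 was at 15.2 and 13.8 TPM against 8.80 and 7.61 TPM (-0.93 ± 0.10, adjusted p = 0.00306), and Col1a2 at 8.27 and 7.995 TPM against 4.196 and 4.203 TPM (-1.07 ± 0.09, adjusted p = 0.00142). Thy1 was at 6.84 and 7.57 TPM against 7.79 and 6.80 TPM and was not called. Igf2 and Dlk1 are also expressed by embryonic fibroblasts, and their part in the imprinted genes above, like that of fibroblast genes in the other lists, was not tested. With all 70 libraries in edgeR and with limma on log2(TPM + 0.5) 0 fibroblast genes were called, with 5 and 6 lower at an unadjusted p under 0.05, and DESeq2 called 5. Among neural progenitor genes, 2 of 5 were lower, Tubb3 (65.4 and 72.1 against 41.0 and 44.95 TPM, -0.72 ± 0.07, adjusted p = 0.00221) and Nes, which was lost without either mESC B6-1 library (adjusted p = 0.0814 and 0.142) or without mESC B6-2 replicate 1 (adjusted p = 0.0733).

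**Figure D4:**
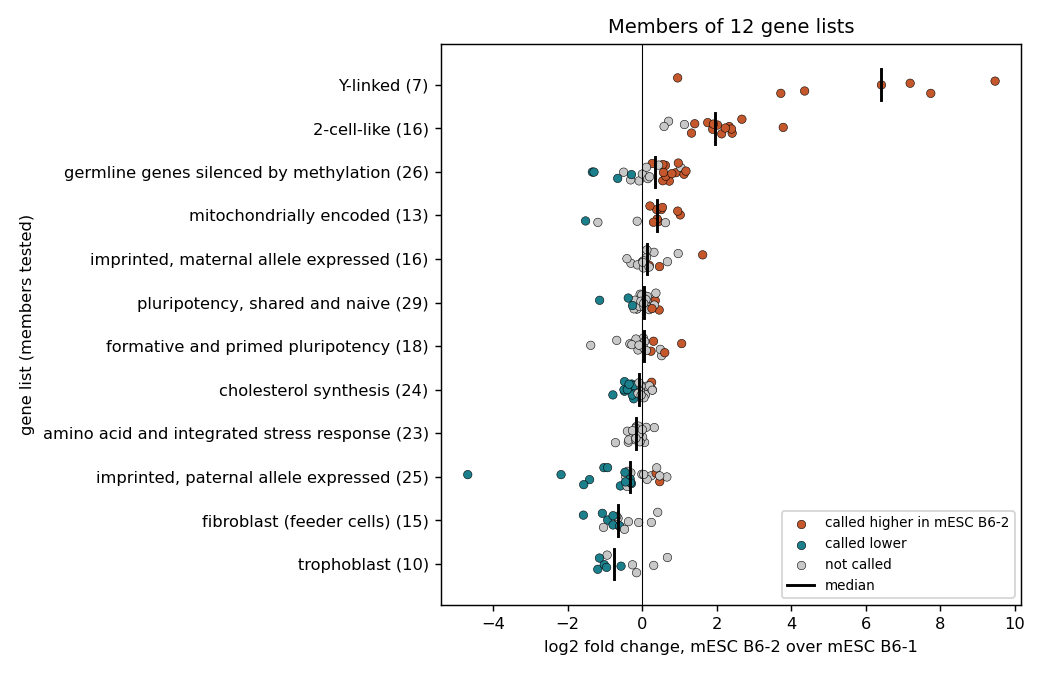
Log2 fold change of every tested member of 12 gene lists (points, with jitter), coloured by call, with the median of each list as a bar. The Y-linked and 2-cell-like genes lie to the right of 0 and most trophoblast, fibroblast and paternally expressed imprinted genes to the left, while pluripotency genes are centred at 0.05.

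Transcripts of the mitochondrial genome took a larger share of mESC B6-2 libraries, 5.14% and 4.89% of TPM against 3.59% and 3.55% in mESC B6-1. Of the 13 mitochondrial genes for proteins 9 (69.2%) were higher and 1 (7.69%) lower, against 8.04% and 7.85% of all tested genes, with a median of 0.40. Without mESC B6-2 replicate 1, 3 were lower, without mESC B6-2 replicate 2, 2, and without mESC B6-1 replicate 1, 0. The respiratory complex I subunit mt-Nd1 was at 4117 and 3930 TPM in mESC B6-1 and at 5785 and 5687 TPM in mESC B6-2 (0.44 ± 0.04, adjusted p = 0.00221), and the ATP synthase subunit mt-Atp8 at 4933 and 5676 TPM against 10620 and 11000 TPM (0.95 ± 0.07, adjusted p = 0.000981). The member called lower was mt-Nd3 (426 and 207 against 154 and 72.1 TPM, -1.52 ± 0.40, adjusted p = 0.0449), of which 1.9% of stretches occur in no other gene. Over the 13 genes the median share of unique stretches was 38%, with 100% for mt-Nd1 and 93.6% for mt-Atp8. With all 70 libraries in 1 edgeR model 0 members were called higher and 0 passed at an unadjusted p under 0.05, while DESeq2 called 9 and limma on log2(TPM + 0.5) 5.

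Genes of cholesterol synthesis shifted less in size. Of 24 members 11 (45.8%) were lower and 1 (4.17%) higher, against 7.85% and 8.04% of all tested genes, with a median of -0.10. Ebp, the sterol isomerase, was at 123 and 107 TPM against 76.2 and 65.5 TPM (-0.79 ± 0.07, adjusted p = 0.00199), and Fdps, which makes farnesyl pyrophosphate, at 156 and 160.2 TPM against 114 and 112 TPM (-0.47 ± 0.05, adjusted p = 0.00235). Ebp and Nsdhl lie on the X chromosome. The count of lower members was 3 without either mESC B6-1 replicate 1 or mESC B6-1 replicate 2, 7 with DESeq2, and 1 with all 70 libraries and with limma on log2(TPM + 0.5). The member called higher was Hmgcs1 (0.25 ± 0.04, adjusted p = 0.0107), lost without either mESC B6-1 library (adjusted p = 0.119 and 0.0951).

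Other listed groups were near the background of 8.04% higher and 7.85% lower, or had few members. Of 23 genes of the amino acid and integrated stress response 0 were called by edgeR with 4 or 70 libraries, DESeq2 or limma on log2(TPM + 0.5). At an unadjusted p under 0.05 in edgeR with 4 libraries, 5 were lower and 0 higher. Their median log2 fold change was -0.15, with 18 below 0 and 5 above, and between -0.12 and -0.08 with 1 library left out. Glycolysis had 2 higher and 2 lower of 21, DNA replication and mitosis 2 and 1 of 22, LIF-STAT3 targets 1 and 1 of 14, ERK targets 1 and 1 of 16, and Wnt targets 0 and 1 of 10. Primitive endoderm had 0 higher and 1 lower of 12 and primitive streak and mesoderm 0 and 1 of 4. Genes that differ between C57BL/6 substrains had 0 calls among 6 in edgeR with all 4 libraries and 0 at an unadjusted p under 0.05, with 0 calls by DESeq2. Nnt, the transhydrogenase disrupted in the J substrain, was at 4.69 and 1.61 TPM in mESC B6-1 and 4.13 and 2.44 TPM in mESC B6-2. Its counts, 549 and 513 against 572 and 404, differed less between libraries (log2 fold change 0.04 ± 0.07). The beta protocadherins likewise had 0 calls and 0 at an unadjusted p under 0.05 among 2 tested in edgeR, with 0 calls by DESeq2. Of the genes for obesity listed by the study 11 were higher and 9 lower of 152, and of those for breast cancer 7 and 3 of 89. With 1 library left out, the obesity genes ranged from 2 (without mESC B6-1 replicate 2) to 14 (without mESC B6-2 replicate 2) higher and from 4 to 13 lower, and the breast cancer genes from 1 to 14 higher and from 1 to 8 lower. Without mESC B6-2 replicate 2, 5 glycolysis genes, 7 of DNA replication and mitosis, 3 Wnt targets and 3 of primitive endoderm were lower. Without either mESC B6-1 library the single calls of primitive endoderm, primitive streak and LIF-STAT3 targets were lost. Stk33, a kinase gene of the obesity list, was at 6.57 and 7.13 TPM against 3.02 and 3.07 TPM (-1.34 ± 0.17, adjusted p = 0.00432).

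Of 19 p53 targets 4 (21.1%) were higher and 1 (5.26%) lower, against 8.04% and 7.85% of all tested genes. DESeq2 also called 4 and 1, but 0 were called with all 70 libraries in edgeR and 0 with limma on log2(TPM + 0.5). Their median log2 fold change was 0.11, and between -0.02 and 0.10 with 1 library left out. The p53 targets were led by Trp53inp1, an autophagy and stress gene at 64.0 and 68.2 TPM in mESC B6-1 and 110 and 97.6 TPM in mESC B6-2 (0.64 ± 0.05, adjusted p = 0.00124). Cdkn1a, the p53-induced inhibitor of cell cycle kinases, was at 102 and 112 TPM against 91.8 and 92.4 TPM and was not called. Of 15 hypoxia genes 3 (20%) were higher and 1 (6.67%) lower, with a median of 0.36. DESeq2 called 3 higher and 1 lower, edgeR with all 70 libraries 1 and 0, and limma on log2(TPM + 0.5) 0 and 0. The median was 0.16 without mESC B6-1 replicate 1, with 2 higher, and 0.64 without mESC B6-1 replicate 2, with 6 higher, and 6 were also higher without mESC B6-2 replicate 1. The prolyl hydroxylase subunit P4ha2 was higher by 0.92 ± 0.14 (adjusted p = 0.00887). Of 15 interferon genes 3 (20%) were lower and 0 higher. DESeq2 called 2 lower, limma on log2(TPM + 0.5) 1 and edgeR with all 70 libraries 0. All 3 belong to the Ifitm genes, which restrict virus entry and are expressed by germ cells and mESCs. Ifitm3 was at 404 and 413 TPM against 268 and 280.1 TPM (-0.65 ± 0.05, adjusted p = 0.00142). The other 2 were lost without mESC B6-1 replicate 1 (adjusted p = 0.105 for Ifitm1 and 0.0585 for Ifitm2).

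Genes with the largest fold changes less often had at least 80% unique stretches, and reads of 33 bases cannot place genes with few such stretches well. Pseudogenes were 37 of the 168 genes higher and 65 of the 201 lower by more than 2-fold, against 1392 of 15391 tested. Of the genes called higher by more than 2-fold 26.2% had at least 80% unique stretches, and of those called lower 52.2%, against 81.7% of all tested genes and 83.6% of genes called at 2-fold or less. Over called genes with an absolute log2 fold change above 4 the share was 9.80% of 51. Examples are Nanog-ps1, a copy of Nanog with 55.5% unique stretches, at 37.1 and 118 TPM in mESC B6-1 and listed at 0 in both mESC B6-2 libraries, at least 20.8-fold lower, and Gm7862, with 36.5% unique stretches, at least 70.2-fold higher in mESC B6-2 (58.7 and 239 TPM). These values are uncertain because reads shared with a parent gene are divided by estimation.

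**Figure D5:**
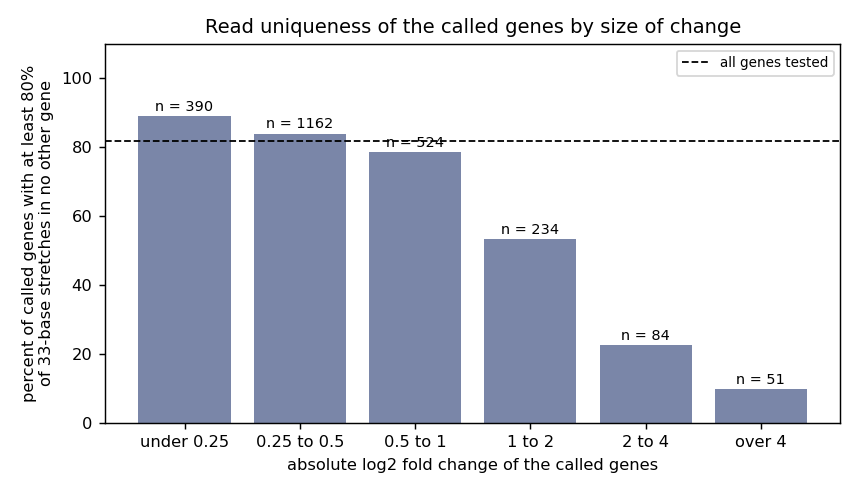
Percent of called genes with at least 80% of their 33-base stretches in no other gene, by absolute log2 fold change, with the number of called genes above each bar and the value for all tested genes as a dashed line. The share is 88.97% for changes under 0.25 and 9.80% for changes over 4.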

How the data were processed

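The authors sequenced strand-specific mRNA libraries as single reads of 33 bases, processed them with CASAVA 1.8.2 and quantified transcripts of GRCm38 with Kallisto. They deposited estimated counts per transcript, and TPM values per transcript and gene that the authors scaled within each library. Here, 98.8% of 109282 transcripts were matched to genes with the GENCODE mouse annotation, the estimated counts of a gene were added up, and the sums were rounded to whole numbers. Between 0.736% and 0.767% of the counts of an mESC library fell on unmatched transcripts. Counts of the 4 mESC libraries were compared with edgeR 4.0.16 (TMM, filterByExpr, quasi-likelihood test) in R 4.3.3, with Benjamini-Hochberg adjustment over all genes tested and calls at an adjusted p under 0.05. With 2 libraries against 2, an exact permutation test cannot pass, so none was run. The fit was tested on simulated data with the same spread between libraries for all genes. It called 29 of 50 genes changed 1.5-fold, 45 of 50 changed 2-fold, 49 of 50 changed 4-fold and 50 of 50 changed 8-fold. Of 15152 unchanged genes it called 10. Data in which the spread differs between genes or clones were not simulated. Counts varied between the 2 libraries of a clone by more than counting noise (chi-square per gene of 2.59 for mESC B6-1 and 7.31 for mESC B6-2), so no library was a duplicate. Alternatives used DESeq2 1.42.0, limma 3.58.1 on log2(TPM + 0.5) or log2(TPM + 0.1) of genes with a mean of at least 1 TPM in a clone, relative log expression, no filter, all 70 libraries, a replicate block and each library left out. A stretch of 33 bases was called unique where it occurs in the annotated transcripts of no other gene. Named genes were the 12 largest changes in each direction among genes called, separated and at 5 TPM or more, up to 4 called members of smallest adjusted p per list, defining markers, and 5 genes of smallest adjusted p among all tested, of which 4 were taken without a stated order from 11 that shared the second smallest value. Of the largest changes few are printed, as most have under 80% unique stretches, and other genes named were chosen after their values were seen. The gene lists and the comparison were chosen with earlier results of these data known. Results for some genes are not reported here. Figures were drawn with matplotlib 3.10.9 in Python 3.11.15.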

Additional observations from a re-analysis of the deposited data

How the results depend on the processing

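Among the genes and lists named in the text no called direction turned under the alternatives. The numbers of genes moved more. With DESeq2, 737 were higher and 715 lower, and 111 and 102 by over 2-fold. In the model of all 70 libraries these were 73, 145, 23 and 44, with limma on log2(TPM + 0.5) 71, 67, 43 and 34, and on log2(TPM + 0.1) 65, 67, 39 and 35. Limma on log2(TPM + 0.5) without a filter called 0 genes, with 2029 higher and 1789 lower at an unadjusted p under 0.05. Among genes with at least 80% unique stretches, an alternative chosen after the data were seen, 44 were higher and 105 lower by over 2-fold. Leaving out 1 library gave 403 to 1904 higher and 443 to 1847 lower, and 137 to 229 and 132 to 307 by over 2-fold. In the order higher Y-linked, 2-cell-like, germline and mitochondrial and lower paternal imprinted, trophoblast, fibroblast and cholesterol genes, the model of all 70 libraries called 7, 0, 2, 0, 5, 0, 0 and 1 members, limma on log2(TPM + 0.5) 4, 6, 2, 5, 2, 0, 0 and 1, on log2(TPM + 0.1) 2, 6, 2, 5, 2, 0, 0 and 1, and without a filter 0 of each. DESeq2 called 3 trophoblast and 7 cholesterol genes. Leaving out 1 library gave 6 to 12 paternal imprinted genes, 2 to 5 trophoblast and 3 to 12 cholesterol genes. The cause of these moves was not tested. The median of the first 11 runs of X was -0.26 from TPM ratios and -0.35 to -0.25 with a library left out. Pearson's r of log2(TPM + 0.1) was 0.9771 and 0.9742 within and 0.9696 to 0.9721 between clones, and Spearman's rho of TPM 0.9417, 0.9374 and 0.9317 to 0.9370. Same-numbered libraries of the clones did not deviate together (r = -0.0047 over genes), so the numbers were not taken as pairs, and a replicate block called 1163 genes higher and 1126 lower. The lowest depth, 12985081 counts in mESC B6-2 replicate 2, limits what can be said of genes with few counts, such as Sry.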

Other observations

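Clusters of neighbouring genes other than those above also differed, as seen from the running median of 25 genes and described after the values were known. Regions were picked where this median was at least 0.5 in either direction, so their counts of calls are a description only. Over all tested genes 8.04% were higher and 7.85% lower. On chromosome 13 (chr13:20794113-25210706) the median log2 fold change of 68 genes was 0.69, and 18 were higher and 2 lower in mESC B6-2. This region holds replication-dependent histone genes, whose RNAs mostly lack a poly(A) tail. Of 40 tested Hist1 genes 14 were higher and none lower, with a summed level of 359.6 and 400.1 TPM in mESC B6-1 and 685 and 1237 TPM in mESC B6-2, so the 2 libraries of mESC B6-2 also differed from each other. The median share of unique stretches of these genes was 45.2%. On chromosome 12 (chr12:87166237-97845116) 12 of 41 genes were higher and none lower, with a median of 0.21. The 12 summed to 49.9 and 47.4 TPM in mESC B6-1 and 132 and 124 TPM in mESC B6-2. All 41 summed to 944.7 and 973.2 TPM against 1033 and 1028 TPM. On chromosome 5 (chr5:92052146-99978938) 16 of 42 were higher and 1 lower, with a median of 0.34. All 42 summed to 1820 and 1754 TPM in mESC B6-1 and 1919 and 1907 TPM in mESC B6-2. The genes called higher in the regions of chromosomes 12 and 5 had median shares of unique stretches of 43.9% and 8.65%.

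Protein-coding genes with at least 80% unique stretches outside the lists, named after their values were seen, included Fgfr2, a fibroblast growth factor receptor at 8.96 and 9.24 TPM in mESC B6-1 and 4.19 and 3.54 TPM in mESC B6-2 (log2 fold change -2.06 ± 0.14 from counts, adjusted p = 0.000833). S100a13, a calcium-binding protein gene, was at 17.8 and 21.2 TPM against 7.35 and 6.86 TPM (-1.52 ± 0.18, adjusted p = 0.00345), and Pramel6, a gene of the PRAME-like family, at 34.97 and 31.6 TPM against 12.96 and 10.9 TPM (-1.33 ± 0.09, adjusted p = 0.00083). Higher in mESC B6-2 were Tmem72, a transmembrane protein gene at 40.9 and 39.5 TPM against 118 and 103 TPM (1.38 ± 0.06, adjusted p = 0.000169), Tmc5 (16.2 and 17.5 against 65.3 and 53.3 TPM, 1.59 ± 0.12, adjusted p = 0.00115) and the meiotic gene Tex11 (3.60 and 4.83 against 10.7 and 9.498 TPM, 1.18 ± 0.14, adjusted p = 0.00348).

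Between the hypothalamic nuclei PVH and VMH, with 2 libraries each and the same fit, 588 genes were higher and 1001 lower in VMH, and 623 of them differed by more than 2-fold, against 1237, 1208 and 369 for the clones. In embryonic midbrain 5140 were higher and 5103 lower than in PVH, and 5088 and 4944 than in VMH. The number called depends on the spread within groups. Chi-square per gene was 13.82 for PVH and 12.6 for VMH, against 2.59 for mESC B6-1 and 7.31 for mESC B6-2. The counts therefore do not rank the pairs by how much they differ.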
